A study of Mus musculus and Rattus norvegicus with 30 samples.

Results

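The experiment compared spared nerve injury (SNI) with sham surgery in the dorsal root ganglia (DRG) of BALB/c mice, the ganglia that hold the cell bodies of the primary sensory neurons. Its members were the 10 BALB/c libraries of the mouse count table, 4 from SNI animals (2 male, 2 female) and 6 from sham-operated animals (3 male, 3 female), out of 30 samples in the whole series. Each library was made from ribosomal RNA-depleted RNA of the L3 and L4 ganglia of 1 animal and was not pooled, so replicates were separate mice. All 10 animals were adult BALB/c mice, with no allele or agent named in the labels, and differed by surgery and sex. According to the paper, the ganglia were taken several weeks after surgery, so the values do not describe an acute response. The fit also held 5 sham and 5 SNI libraries of the B10.D2 strain, which shared the estimate of the spread and served once, for a test of the difference between strains. A library is called by its group and the number its title gives (sham 50, SNI 49).

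In SNI, branches of the sciatic nerve are cut while a further branch is left intact, so a ganglion then holds axotomised neurons beside spared ones, together with satellite glia, Schwann cells, fibroblasts, vessels and macrophages. Axotomy is known to switch sensory neurons into a growth state, in which transcription factors such as Atf3 and Jun accompany regeneration-associated genes and peptides such as galanin and neuropeptide Y. Injured sensory neurons are also known to signal to macrophages through colony-stimulating factor, and satellite glia to express more glial fibrillary acidic protein. In whole-ganglion RNA, fewer cells of a type and less RNA per cell cannot be told apart.

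The 10 libraries held 29989963 to 40610334 assigned counts. Log2 CPM (counts scaled to the library total and by the trimmed mean of M-values, TMM) correlated at 0.982 or above between libraries of a group, and no 2 libraries were identical. Skeletal muscle RNA was present in some ganglia: the 18 muscle markers summed to 4861 CPM in sham 50 and 1917 CPM in SNI 49, against 119.6 to 509.5 CPM in the other 8 libraries. The same 2 libraries held the highest summed neutrophil and mast cell markers, 369.6 CPM in sham 50 and 565.9 CPM in SNI 49, against 64.8 to 223.7 CPM elsewhere. On the first principal component (27.5% of the variance), sham 50 lay at -13.0, inside the range of the SNI libraries (-51.9 to -10.6), and sham 55 at -0.65, where the other sham libraries lay at 28.2 to 32.6. The summed pan-neuronal markers, in contrast, spanned 8557 to 9605 CPM in sham and 8473 to 9334 CPM in SNI, and sensory neuron genes were present in every library.

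**Figure D1:**
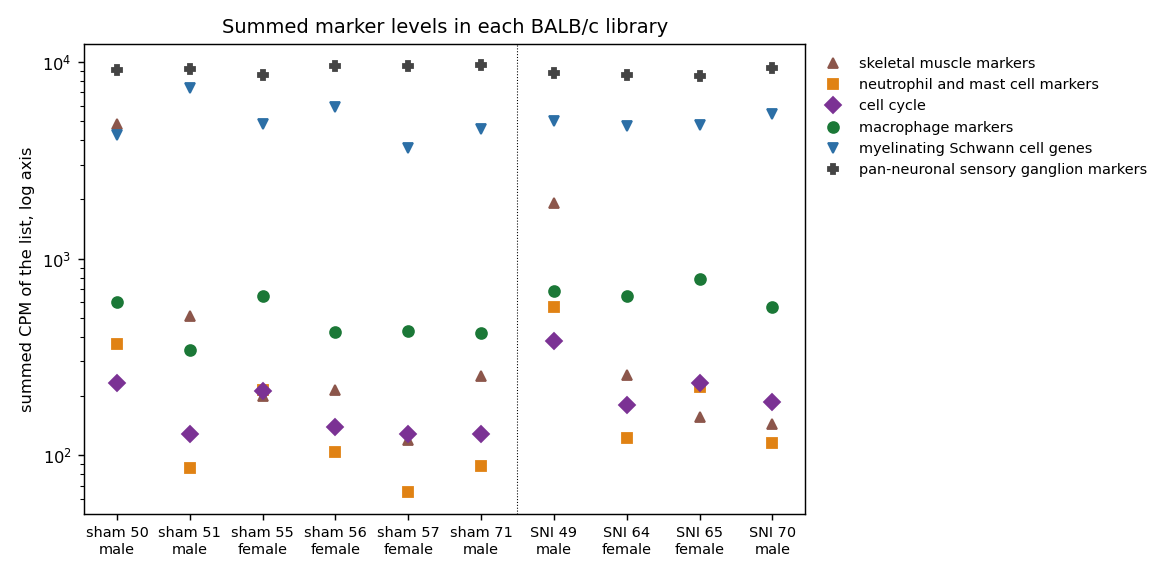
Summed CPM (log axis) of 6 marker lists in each of the 10 BALB/c libraries, with sham to the left and SNI to the right of the dotted line. Muscle markers stand apart in sham 50 (4861 CPM) and SNI 49 (1917 CPM), and pan-neuronal markers lie between 8473 and 9605 CPM throughout.

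Of 24685 features tested, 2392 were differentially expressed (DE) between SNI and sham at an adjusted p under 0.05 (edgeR quasi-likelihood test, Benjamini-Hochberg over all features), which is 9.69% of those tested. Of these, 1190 (4.82%) were higher and 1202 (4.87%) lower after SNI. Counts of called list members given below are to be read against these shares of all features. Values after ± are standard errors for log2 fold changes of SNI over sham, and SD for mean CPM (n = 6 sham, n = 4 SNI). Among 15701 protein-coding genes, 984 were higher and 971 lower (12.5% in all). Numbers were balanced but sizes were not, since 159 protein-coding genes rose at least 2-fold and 17 fell at least 2-fold. The 984 that rose had a median fold of 1.33, and the 971 that fell had one of 1.22. The 159 genes that rose at least 2-fold had a median sham level of 0.64 CPM and the 17 that fell at least 2-fold one of 0.818 CPM, against 20.8 CPM over all protein-coding genes tested. All 971 genes that fell had a median sham level of 58.3 CPM, and the 984 that rose one of 18.4 CPM. The 4 SNI libraries lay outside the range of the 6 sham libraries in 8.61% of all features, above it in 4.3% and below it in 4.31%. Without sham 50 and SNI 49, 2060 features were called (951 higher, 1109 lower, 8.22% of those tested), 1779 of them also among the 2392 and all 1779 in the same direction. The count of features called higher was 777 without SNI 64 and 791 without SNI 65.

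**Figure D2:**
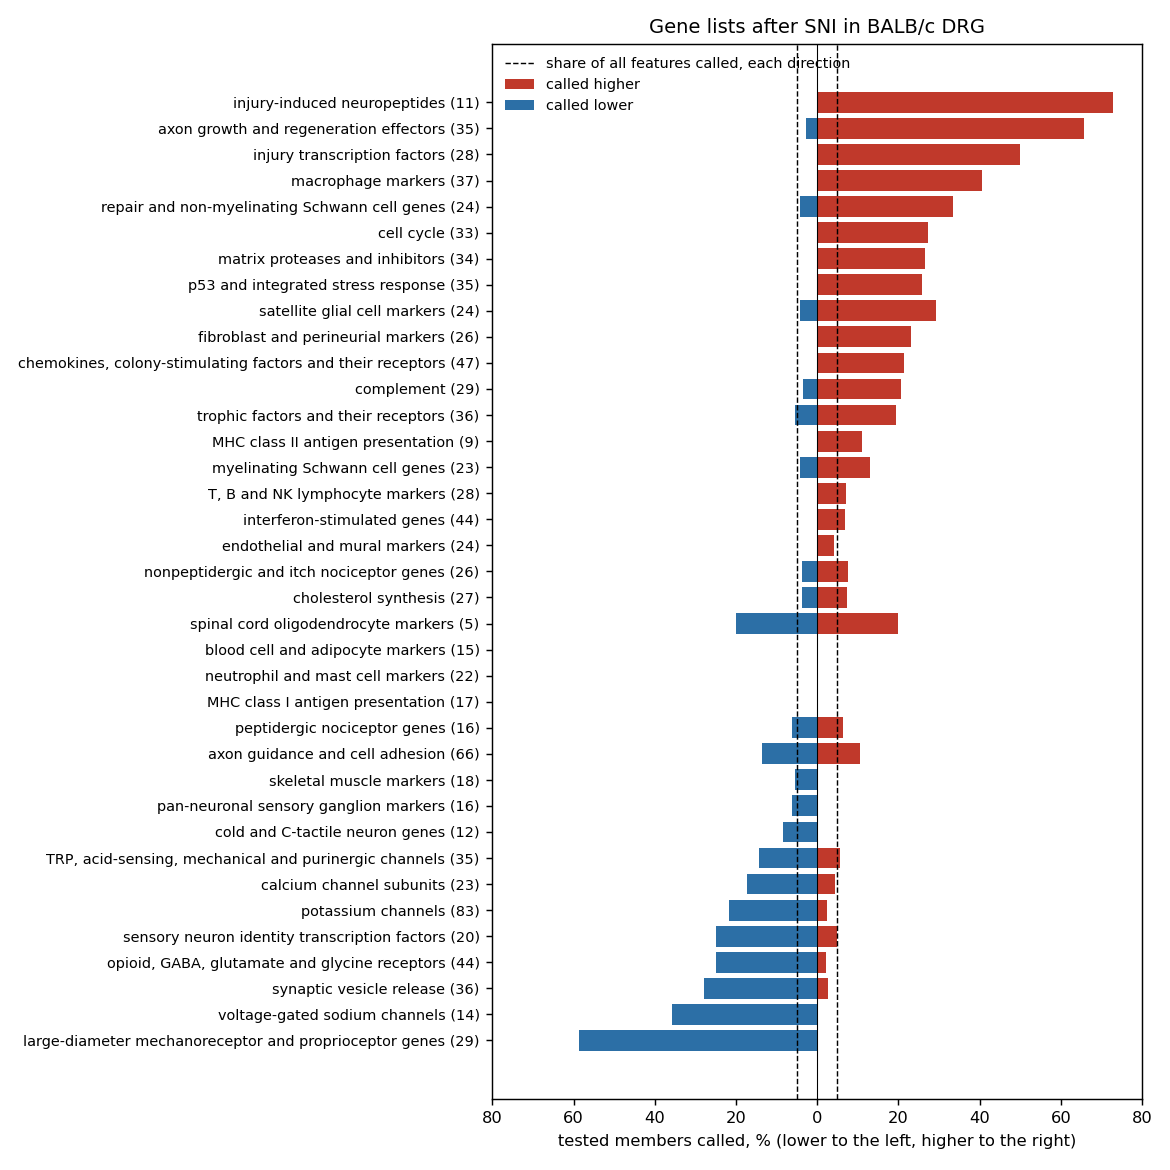
Share of the tested members of each gene list (number tested in brackets) called higher (red, to the right) or lower (blue, to the left) after SNI, with dashed lines at the 4.82% and 4.87% of all features called in each direction. Injury-induced neuropeptide, growth and injury transcription factor lists lie to the right, and large-diameter neuron, sodium channel and synaptic vesicle lists to the left.

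Among protein-coding genes with a mean of at least 1 CPM whose groups did not overlap, the largest rise was that of Sprr1a (ENSMUSG00000050359, chr3:92483952-92485895, GRCm38), a small proline-rich protein tied to axon outgrowth. Sprr1a ranged from 0.140 to 1.91 CPM with a median of 0.773 in the 6 sham libraries and reached 17.2, 23.3, 28.3 and 29.4 CPM in the 4 SNI libraries. Every SNI library stood above every sham library, and the log2 fold change was 4.92 ± 0.39 (adjusted p = 8.50e-08, edgeR). Lipn (chr19:34067358-34084918), a member of the acid lipase family, went from at most 0.298 CPM in sham, with 1 sham library at 0 counts, to 3.15, 3.58, 3.74 and 3.81 CPM after SNI (log2 fold change 4.78 ± 0.42). Such low sham levels rest on few counts, and the fitted fold change of Lipn depends on the prior count.

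The remaining genes among the 15 largest rises spanned secreted factors, receptors, surface and junction proteins. Fgf3, a secreted fibroblast growth factor, stood at 0.239 to 1.22 CPM in sham and at 7.20, 7.26, 7.68 and 10.6 CPM after SNI, a log2 fold change of 4.12 ± 0.45. Gpr151, an orphan G protein-coupled receptor, averaged 1.60 ± 0.489 CPM over sham and 25.3 ± 5.91 CPM over SNI libraries. Cckbr, the cholecystokinin B receptor, ranged from 0.251 to 1.94 CPM with a median of 0.795 in sham and gave 10.3, 12.5, 13.3 and 14.7 CPM after SNI. For both receptors no SNI library fell within the sham range, with log2 fold changes of 3.98 ± 0.26 for Gpr151 and 3.76 ± 0.41 for Cckbr. Ecel1, a neuronal relative of the endothelin-converting enzymes, rose by 3.78 on the log2 scale, from a range of 0.677 to 4.11 CPM to 23.2 to 28.99 CPM. Dsp, the desmosomal plaque protein desmoplakin, rose by 3.13, from a range of 1.504 to 5.16 CPM to 25.7 to 32.3 CPM. The transmembrane serine protease Tmprss11f (3.84), the transmembrane protein Cdcp1 (3.69), Fam151a (3.83), 4930438A08Rik (3.04) and Duoxa1 (3.10), the maturation factor of a dual oxidase, were all at 1.22 CPM or less in every sham library and at 1.75 CPM or more in every SNI library.

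**Figure D3:**
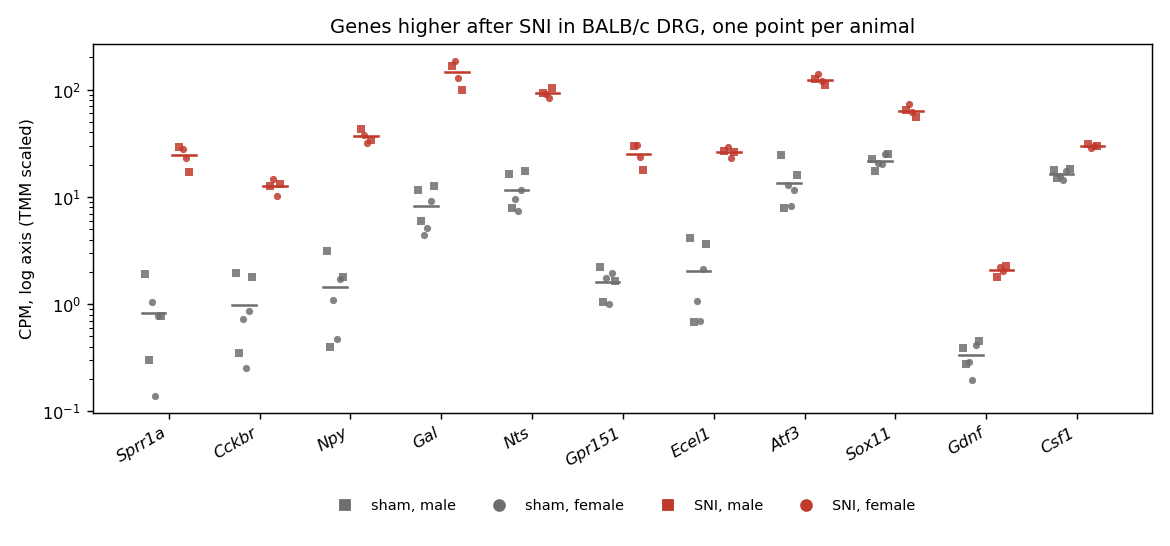
CPM (log axis) of 11 genes called higher after SNI in the 6 sham (grey) and 4 SNI (red) BALB/c libraries, with squares for males, circles for females and bars at group means. In all 11 the SNI libraries lie above the highest sham library, as for Gal (98.97 to 186 CPM against at most 12.6 CPM).

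Of the 15 largest rises, 3 carried the same short element near their start. Of the 15 genes, 14 had a searched RefSeq promoter window of 300 bases (250 before to 50 after the start, GRCm38.p6), and 7 motifs were searched in them. The AP-1 element TGACTCA, read on both strands (reverse complement TGAGTCA), was found in 3 of the 14 windows, against 5.2% of all 32851 windows searched. Those of Sprr1a (chr3:92485882-92486131, minus strand), Lipn (chr19:34067108-34067357, plus strand) and Tmprss11f (chr5:86632425-86632674, minus strand) are printed, up to the start, to show where the letters lie, in capitals.
Sprr1a: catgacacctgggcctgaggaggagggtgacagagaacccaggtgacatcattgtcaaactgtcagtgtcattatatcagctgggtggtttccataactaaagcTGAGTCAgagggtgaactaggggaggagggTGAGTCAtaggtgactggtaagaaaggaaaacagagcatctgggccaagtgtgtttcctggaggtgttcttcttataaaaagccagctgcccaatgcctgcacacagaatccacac
Lipn: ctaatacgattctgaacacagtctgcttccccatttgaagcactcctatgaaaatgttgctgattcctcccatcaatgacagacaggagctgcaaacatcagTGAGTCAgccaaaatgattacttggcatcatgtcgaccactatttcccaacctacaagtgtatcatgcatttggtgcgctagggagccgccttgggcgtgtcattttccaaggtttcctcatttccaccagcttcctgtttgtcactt
Tmprss11f: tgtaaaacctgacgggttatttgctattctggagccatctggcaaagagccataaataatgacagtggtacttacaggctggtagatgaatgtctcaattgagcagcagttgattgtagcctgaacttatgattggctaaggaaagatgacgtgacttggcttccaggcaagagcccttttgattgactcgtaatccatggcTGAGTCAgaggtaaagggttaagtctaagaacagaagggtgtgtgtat
Sprr1a held the element at 146 and again at 116 bases before the start, Lipn at 148 and Tmprss11f at 48. Jun and Fos family proteins are known to bind this element, but a match of letters is a description and not a binding site. In the other 11 windows these letters were not found. The cyclic AMP response element TGACGTCA was in 0 of the 14 windows, and in 1.79% of all windows. An E-box, CACGTG, was in 1 of the 14 and in 7.15% of all windows, and the remaining motifs searched were in 0 of the 14. No difference from all windows was tested. Shares over the wider set of genes called higher are not given because promoter windows were found for 122 of the 159 genes that rose at least 2-fold (76.7%), under the 80% needed for such a check.

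Many transcription factors of the injury response rose. Of 28 tested, 14 were higher and 0 lower, with a median log2 fold change of 0.262 over the list against 0.0033 over all features. Its members were listed for known roles in injury or regeneration, so the list does not describe transcription factors in general. At an unadjusted p under 0.05 the counts were 15 higher and 0 lower, and DESeq2 also called 14 and 0. Atf3 (ENSMUSG00000026628, chr1:191170296-191218039), a stress-induced bZIP factor and the classical marker of axotomised neurons, ranged from 7.82 to 24.6 CPM with a median of 12.2 in sham and reached 111, 121, 127 and 139 CPM after SNI, a log2 fold change of 3.24 ± 0.29 (adjusted p = 3.10e-07). The lowest SNI library, at 111 CPM, lay far above the highest sham library, sham 50. Sox11, a growth-promoting SOX factor, rose from 21.9 ± 2.98 CPM to 63.8 ± 7.89 CPM (1.55 ± 0.14). Immediate early members moved less, with Fos at 3.46 to 7.37 CPM in sham and 8.76 to 11.96 CPM after SNI (log2 fold change 1.02, adjusted p = 0.00288) and Fosl2 at 0.92. Jun rose by 0.57, Klf6 by 0.51 and Smad1 by 0.42. Several abundant regulators with known roles in regeneration gave no call: Stat3 went from 369 ± 23.03 CPM to 382 ± 21.9 CPM (adjusted p = 0.626), Klf7 gave a log2 fold change of 0.01 ± 0.07 and Atf4, the integrated stress response factor, one of -0.01 ± 0.06.

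Effectors of axon growth gave 23 higher and 1 lower of 35 tested (median log2 fold change 0.645). These genes too were listed for known roles in axon growth and regeneration, so their direction is no independent finding. Gap43, the growth cone phosphoprotein, ranged from 102 to 136 CPM with a median of 115 in sham and gave 193, 204, 206 and 206 CPM after SNI, a log2 fold change of 0.81 ± 0.07 (adjusted p = 2.15e-07). The change was under 2-fold, and the 4 SNI libraries lay close together and above every sham library. The adhesion proteins Flrt3 and Chl1 rose by 1.80 ± 0.11 and 1.02 ± 0.07 on the log2 scale, Chl1 from 175 ± 15.4 CPM to 354 ± 19.9 CPM. Stmn4, a microtubule-destabilising stathmin, rose by 1.73 ± 0.14. The one member that fell was Map1b, an abundant axonal microtubule-associated protein, from a range of 9010 to 10440 CPM to 6560 to 8125 CPM (log2 fold change -0.34 ± 0.07, adjusted p = 0.00349). Some of the most abundant members were not called: neuronal tubulin Tubb3 went from 2197 ± 98.3 CPM to 2359 ± 150.1 CPM (adjusted p = 0.165), Anxa2 gave 0.08 and Dpysl3 -0.01.

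The list of injury-induced neuropeptides had the largest median change, 3.006 on the log2 scale over 11 tested members. Of these, 8 were higher and 0 lower (at an unadjusted p under 0.05, 8 higher and 1 lower, and by DESeq2 7 higher and 0 lower of 9). With at least 10 counts in every library, 4 of 6 were higher and the median was 1.867. Its members were listed because injury is known to induce them, so the list does not describe neuropeptides in general. Galanin (Gal, ENSMUSG00000024907, chr19:3409915-3414544) ranged from 4.42 to 12.6 CPM with a median of 7.53 in sham. After SNI it stood at 98.97, 128, 165 and 186 CPM, above every sham library, a log2 fold change of 4.18 ± 0.25 (adjusted p = 1.98e-09). Neuropeptide Y (Npy, chr6:49822710-49829507), present at 0.401 to 3.10 CPM in sham, reached 31.99, 33.7, 38.1 and 43.5 CPM after SNI (4.72 ± 0.39, adjusted p = 1.24e-07). Neurotensin (Nts) rose from 11.7 ± 4.29 CPM to 92.6 ± 7.97 CPM, with 83.3, 91.3, 93.1 and 103 CPM in the single SNI libraries and at most 17.5 CPM in sham. Adcyap1, which encodes the pituitary adenylate cyclase-activating peptide, started at 61.5 ± 11.5 CPM and rose less, by 0.73 ± 0.11. Members of the corticotropin-releasing factor family were low in sham and higher after SNI: Crh went from at most 0.343 CPM in sham to 1.58, 1.88, 2.10 and 2.72 CPM, Ucn, urocortin, from at most 0.285 CPM to 1.04, 1.67, 1.78 and 1.98 CPM, and Ucn2 from at most 0.149 CPM to 0.602, 1.10, 1.14 and 1.22 CPM. These 3 genes stayed under 3 CPM in every library. Neuromedin B (Nmb) did not pass the test although its 4 SNI libraries, at 58.9, 62.97, 66.1 and 66.8 CPM, lay below all sham libraries (67.8 to 78.1 CPM, adjusted p = 0.114). Proenkephalin (Penk) stood apart in single animals, with 12.1 CPM in SNI 70 and 9.56 CPM in sham 71 against 2.62 to 4.17 CPM in the others, and was not called (adjusted p = 0.598). Cholecystokinin (Cck), whose receptor Cckbr rose, was at 0.441 CPM or less in every library.

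Trophic signals and their receptors were mixed, with 7 higher (19.4%) and 2 lower (5.56%) of 36 tested (median log2 fold change 0.151). Of all features, 4.82% were higher and 4.87% lower, so the share lower was near that of all features. Gdnf, the glial cell line-derived neurotrophic factor, rose from a range of 0.195 to 0.457 CPM to 1.78, 2.02, 2.23 and 2.27 CPM (2.62 ± 0.27, adjusted p = 1.49e-06). Clcf1, a cytokine that acts through the ciliary neurotrophic factor receptor, rose from 1.28 ± 0.337 CPM to 2.70 ± 0.338 CPM. Of receptors, Gfra1, the GDNF co-receptor, rose by 0.41 ± 0.08 and Gfra3, the artemin co-receptor, by 0.59 ± 0.13. The receptor tyrosine kinase Ret stood at 495 ± 65.1 CPM in sham and 495 ± 45.1 CPM after SNI, and the brain-derived neurotrophic factor Bdnf at 23.9 ± 4.65 CPM and 24.6 ± 3.49 CPM. Neither passed the test.

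Sensory neuron classes were compared by their marker genes. Of 29 genes of large-diameter mechanoreceptors and proprioceptors, 17 were lower and 0 higher, with a median log2 fold change of -0.425 (at an unadjusted p under 0.05, 22 lower and 0 higher, and by DESeq2 20 lower and 0 higher). Peptidergic nociceptor genes gave 1 higher and 1 lower of 16 (median -0.014), and nonpeptidergic and itch nociceptor genes 2 higher and 1 lower of 26 (median 0.023). Cold and C-tactile neuron genes gave 1 lower (8.33%) of 12 (median -0.044). Pan-neuronal markers gave 1 lower (6.25%) of 16 (median -0.093), which was Snap25. Of all features, 4.87% were lower. The difference between these lists was not tested.

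**Figure D4:**
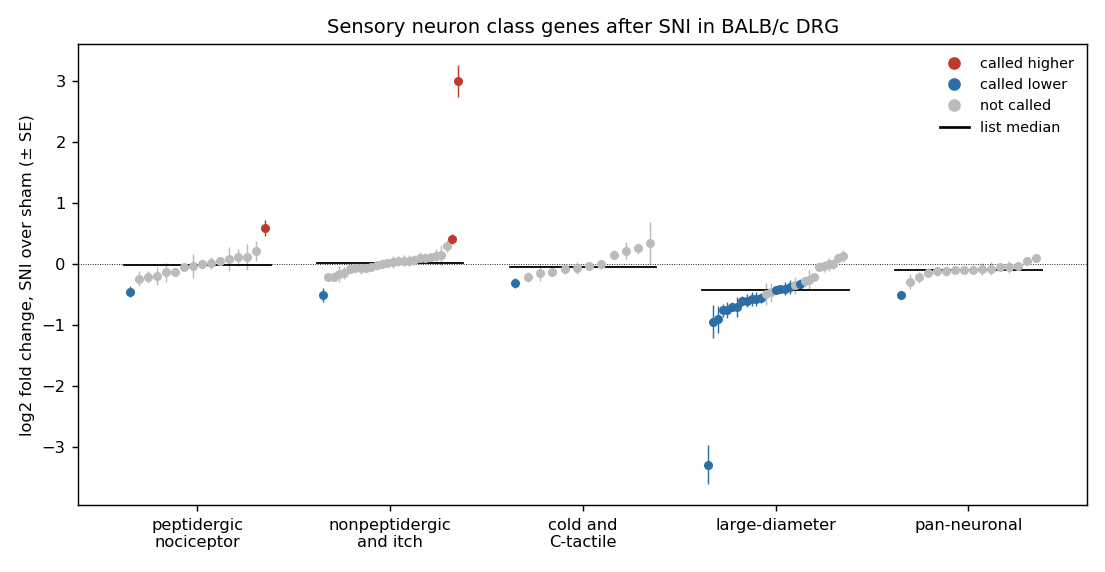
Log2 fold change of SNI over sham (± SE) for every tested gene of 5 neuronal lists, with genes called higher in red, lower in blue and not called in grey, and a black line at each list's median. The large-diameter list lies mostly below 0 (median -0.425, lowest Calb2 at -3.29), and the medians of the other 4 lists lie between -0.093 and 0.023.

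Calb2 (ENSMUSG00000003657, chr8:110137502-110168210), which encodes the calcium-binding protein calretinin, gave the largest fall of any gene named here. It ranged from 6.60 to 11.2 CPM with a median of 9.43 in sham and stood at 0.648, 0.702, 0.879 and 1.65 CPM after SNI, a log2 fold change of -3.29 ± 0.32 (adjusted p = 8.44e-07). All SNI libraries were at 1.65 CPM or less and all sham libraries at 6.60 CPM or more. The nuclear receptor Esrrg fell by 0.76 ± 0.10 and its relative Esrrb by 0.91 ± 0.22, Esrrg from 29.3 ± 3.03 CPM to 17.4 ± 2.26 CPM. The heavy, medium and light neurofilament genes Nefh, Nefm and Nefl, structural proteins of large axons, were all among the 17 that fell. Ntrk3, a neurotrophin receptor of proprioceptors, was not called (log2 fold change -0.28 ± 0.09, adjusted p = 0.0575), with SNI 49 at 617 CPM and the other SNI libraries at 423 to 517 CPM. Without SNI 49 it passed, at an adjusted p of 0.0139.

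Parvalbumin (Pvalb) is a marker of proprioceptors that fast skeletal muscle also makes, and it belongs to both the large-diameter and the muscle list. Pvalb stood at 57 to 151 CPM in sham, highest in sham 50, and at 32.05, 32.2, 34.4 and 97.7 CPM after SNI, where the 97.7 CPM belonged to SNI 49. The parts of muscle and of neurons in these values were not tested. The log2 fold change over all libraries was -0.95 ± 0.27 (adjusted p = 0.0323). Without both libraries it was -1.29 ± 0.20 (adjusted p = 0.000344). The call was lost when sham 50 (adjusted p = 0.0688), sham 56 (0.0726), SNI 64 (0.118), SNI 65 (0.109) or SNI 70 (0.106) was left out alone. Without both libraries, 20 of 29 large-diameter genes were lower and 0 higher (median -0.492).

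Nociceptor genes were called at shares near those of all features, 6.25% higher and 6.25% lower for peptidergic and 7.69% higher and 3.85% lower for nonpeptidergic genes, against 4.82% and 4.87%. Calca, the calcitonin gene-related peptide precursor, ranged from 908 to 1047 CPM with a median of 1007 in sham and gave 854, 872, 919.6 and 959.7 CPM after SNI, with overlap between the groups (log2 fold change -0.13 ± 0.06, adjusted p = 0.244). The substance P precursor Tac1 gave a log2 fold change of -0.14 ± 0.16 and the capsaicin receptor Trpv1 one of 0.22 ± 0.16, neither called. The sodium channel gene Scn11a of nociceptors differed by -0.06 and the receptor Mrgprd of nonpeptidergic endings by -0.21 (adjusted p = 0.051, and 0.0141 without sham 50 or 0.047 without sham 51). Mrgprx1, an itch receptor, fell by 0.51 ± 0.11, with 8.95, 9.41, 10.5 and 10.6 CPM after SNI against 12.6 to 15.8 CPM in sham. The cold receptor Trpm8 fell by 0.32 ± 0.08 and Piezo2, the touch channel, was not called (-0.13 ± 0.06). Of 20 identity transcription factors, 5 were lower and 1, Zeb2, higher (median -0.210). Etv1, a factor of proprioceptors, fell by 0.55 ± 0.08, Mafa of mechanoreceptors by 0.71 ± 0.16 and Onecut1 by 0.75 ± 0.20. The call of Onecut1 was lost without SNI 64 (adjusted p = 0.0681) and without SNI 65 (0.0788), and the 5 lower became 3 without sham 56, SNI 49, SNI 64 or SNI 65.

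Voltage-gated ion channels mostly fell where they changed. Of 14 sodium channel genes, 5 were lower and 0 higher (at an unadjusted p under 0.05, 6 and 0, and by DESeq2 5 and 0). Scn1a, a channel gene of myelinated neurons, ranged from 277 to 342 CPM with a median of 308 in sham and fell to 194, 195, 208 and 233.9 CPM (log2 fold change -0.57 ± 0.06, adjusted p = 8.44e-07). Scn8a, which encodes the nodal channel, fell by 0.47 ± 0.10, Scn4a by 0.71 ± 0.11 and the beta subunit gene Scn4b by 0.36 ± 0.08. In each of these 4 genes all SNI libraries lay below all sham libraries. The nociceptor channel genes Scn10a (949 ± 109 CPM in sham, 836 ± 43.9 CPM after SNI, adjusted p = 0.113) and Scn9a (756 ± 83.8 CPM and 686 ± 31.1 CPM, adjusted p = 0.243) were not called. Scn10a was called lower when sham 50 was left out (adjusted p = 0.0203).

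Potassium channels gave 18 lower and 2 higher of 83 tested (median log2 fold change -0.116). Kcnh7, a subunit of the ERG family, fell from 319 to 432 CPM in sham to 230.2, 232.1, 238 and 243 CPM (-0.70 ± 0.07, adjusted p = 2.10e-06). The modulatory subunit gene Kcng4 (-0.73 ± 0.13) and the inward rectifier Kcnj9 (-0.73 ± 0.13) also fell. Kcna1, an abundant axonal subunit gene, differed by -0.11 ± 0.08 and was not called. The 2 that rose, Kcnk16 (3.40) and Kcnh4 (2.72), averaged under 1 CPM and are named after their values were seen. Calcium channel subunits gave 1 higher (4.35%) and 4 lower (17.4%) of 23, against 4.82% and 4.87% of all features. The 4 became 2 without SNI 65 or SNI 70. The one that rose was Cacna2d1 (chr5:15934691-16374511), which encodes the alpha2delta subunit bound by gabapentin. It ranged from 298 to 447 CPM with a median of 329 in sham and gave 534, 580.5, 584 and 616 CPM after SNI, with no overlap (log2 fold change 0.71 ± 0.10, adjusted p = 5.52e-05).

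Receptors for opioids, GABA, glutamate and glycine gave 11 lower and 1 higher (the kainate receptor subunit gene Grik2) of 44 (median -0.109). Oprd1, the delta opioid receptor, fell by 0.70 ± 0.08, from a range of 16.8 to 23.02 CPM to 11.5, 12.2, 12.7 and 13.8 CPM (adjusted p = 9.91e-06). The nociceptin receptor Oprl1 fell by 0.54 ± 0.07, and the GABA-A receptor subunits Gabra5 and Gabrb2 fell by 0.67 ± 0.12 and 0.52 ± 0.07. Oprm1, the mu opioid receptor, stood at 33.5 ± 3.33 CPM in sham and 31.97 ± 2.03 CPM after SNI and was not called (adjusted p = 0.651). TRP, acid-sensing, mechanical and purinergic channels gave 5 lower (14.3%) and 2 higher (5.71%) of 35 (median -0.052), against 4.87% and 4.82% of all features. Asic1, an acid-sensing channel, went down from 66.5 ± 6.33 CPM to 44.2 ± 6.51 CPM (-0.60 ± 0.10). Piezo1, the vascular and widely expressed mechanical channel, rose by 0.42 ± 0.11, and its call was lost without SNI 70 (adjusted p = 0.0883). The 2 higher became 0 without SNI 70 and 1 with the BALB/c libraries alone or without sham 56, sham 57, sham 71, SNI 49, SNI 64 or SNI 65, and the 5 lower were 8 by DESeq2. Synaptic vesicle genes gave 10 lower and 1 higher of 36 (median -0.168). The 1 that rose, Syt4, lost its call without sham 50, sham 55, sham 56, SNI 64, SNI 65 or SNI 70 (adjusted p = 0.051 to 0.118). Vamp1, the vesicle SNARE of large sensory neurons, fell from 379.8 ± 34.2 CPM to 251 ± 44.8 CPM, and Snap25, its plasma membrane partner, from 997 ± 111 CPM to 699.8 ± 37.2 CPM. The calcium sensor Syt2 fell by 0.47 ± 0.10. In these 3 genes the SNI libraries did not reach the sham range, although SNI 49 came nearest to it for Vamp1, at 318 CPM against at least 348 CPM.

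**Figure D5:**
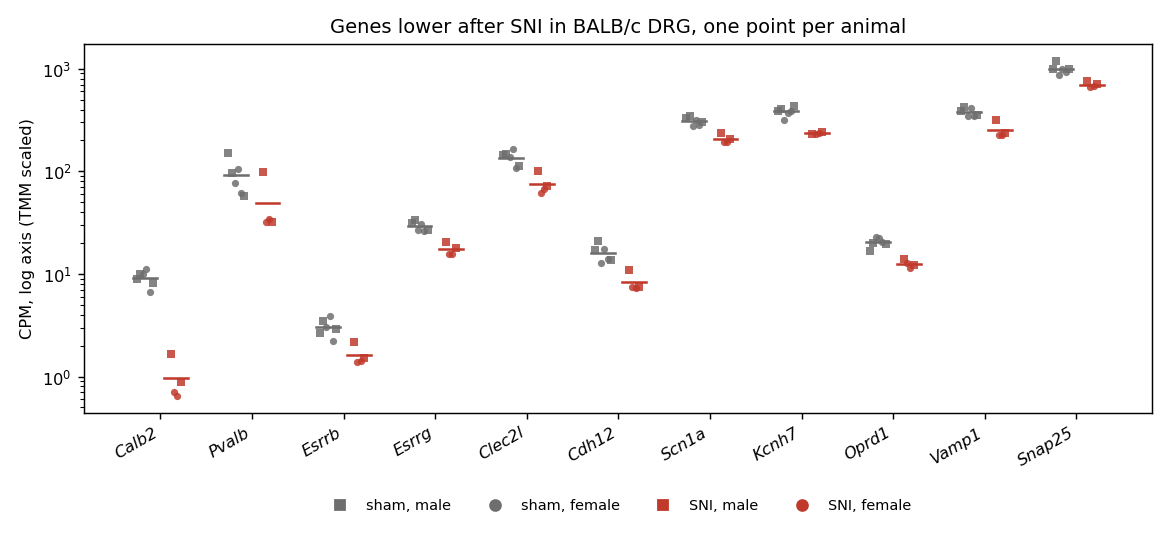
CPM (log axis) of 11 genes called lower after SNI in the 6 sham (grey) and 4 SNI (red) BALB/c libraries, with squares for males, circles for females and bars at group means. Calb2 shows the widest gap (at least 6.60 CPM against at most 1.65 CPM), and Pvalb alone overlaps between the groups, through SNI 49.

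The other large falls were smaller than that of Calb2. Among the 15 largest, Vstm2b, an immunoglobulin-domain protein, ranged from 4.54 to 6.64 CPM with a median of 5.72 in sham and gave 1.58, 1.74, 1.99 and 3.63 CPM after SNI (log2 fold change -1.39 ± 0.23, adjusted p = 4.10e-04). Clec2l, a C-type lectin-like gene, was the most abundant, at 136 ± 21.6 CPM in sham and 75.5 ± 17.7 CPM after SNI. Cdh12, a neuronal cadherin, fell by 0.95 ± 0.14 and Omg, the oligodendrocyte myelin glycoprotein gene that neurons also express, by 0.88 ± 0.12. Gjd2, the connexin gene of neuronal electrical synapses, fell from a range of 1.64 to 3.03 CPM to 0.881, 0.964, 1.26 and 1.38 CPM. Metabolic genes in the list were Aldh1a7, an aldehyde dehydrogenase (-1.04), Gpx2, a glutathione peroxidase (-1.08), Chst5, a sulfotransferase (-0.93) and Thrsp, a lipogenic gene under thyroid hormone (-0.93). Fam196b (-1.15), Gm11639 (-0.97), Pmfbp1 (-0.91) and Myh7b, a slow-type myosin heavy chain (-0.95), completed it. Among the SNI libraries, SNI 49 was highest for Calb2, Vstm2b, Clec2l, Cdh12, Esrrb, Fam196b, Gm11639, Pmfbp1 and Myh7b, but not for Omg, Gjd2, Aldh1a7, Gpx2, Chst5 or Thrsp. Among the sham libraries, Myh7b was highest in sham 56 (4.74 CPM, with 3.34 CPM in sham 50). Cdh12 was highest in sham 51 (20.8 CPM, with 17.2 CPM in sham 50). The part of muscle RNA in these values was not tested.

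Macrophage-related genes and colony-stimulating factor were higher after SNI. Csf1, the colony-stimulating factor that axotomised sensory neurons are known to induce, ranged from 14.2 to 18.1 CPM with a median of 16.6 in sham and gave 28.7, 29.6, 29.9 and 31.1 CPM after SNI (log2 fold change 0.87 ± 0.08, adjusted p = 2.24e-07). Of 47 chemokines, colony-stimulating factors and their receptors, 10 were higher and 0 lower (median 0.566, and 20 higher and 0 lower at an unadjusted p under 0.05). Of 37 macrophage markers, 15 were higher and 0 lower (median 0.519, 25 and 0 at an unadjusted p under 0.05, 16 and 0 by DESeq2). Ms4a7 rose from a range of 1.20 to 2.68 CPM to 3.21, 3.23, 5.24 and 5.52 CPM (1.16 ± 0.18), the lysosomal protease Ctss from a range of 7.82 to 18.9 CPM to 21.04, 21.7, 31.2 and 35.7 CPM (0.99 ± 0.21), and Mpeg1, the macrophage perforin, from a range of 11.9 to 25.4 CPM to 29.6, 31.9, 32.3 and 42.9 CPM (0.93 ± 0.18). The fractalkine receptor Cx3cr1 rose by 0.97 ± 0.20 with overlap between groups. Cd68, a lysosomal macrophage gene, rose by 0.62 ± 0.18 (adjusted p = 0.0318), but its call was lost with the BALB/c libraries alone (adjusted p = 0.0733) and without sham 51, sham 56, sham 57, sham 71, SNI 49, SNI 65 or SNI 70 (0.0525 to 0.161), and Aif1, a microglial and macrophage gene, was not called (0.35 ± 0.17, adjusted p = 0.213).

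Summed over the list, macrophage markers spanned 343.5 to 644.7 CPM in sham, highest in sham 55 and sham 50 (599.4 CPM), and 567.6 to 785.2 CPM in SNI, so the groups overlapped through those 2 sham libraries. The count of 15 was 8 when the BALB/c libraries were fitted alone. It rose to 22 without sham 50 or sham 55, and fell to 7 without sham 56 or SNI 65, to 8 without sham 51 and to 9 without sham 57, sham 71 or SNI 64. Without sham 50 and SNI 49 together it was 16. The chemokine gene Cxcl14 rose by 1.14 ± 0.22 (adjusted p = 0.00144).

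The other immune lists varied. MHC class II genes gave 1 higher (11.1%) and 0 lower of 9, against 4.82% of all features higher. The 1 higher was H2-Ob, whose call was lost without sham 51, sham 57, SNI 49 or SNI 65 (adjusted p = 0.0522 to 0.127). Cd74, the invariant chain, went from 68.5 ± 18.5 CPM to 78.2 ± 25.9 CPM (adjusted p = 0.638). Of 17 MHC class I genes, 0 were called by edgeR or DESeq2 (3 higher and 0 lower at an unadjusted p under 0.05). Interferon-stimulated genes gave 3 higher and 0 lower of 44, a share of 6.82% higher, near the 4.82% of all features. The largest of these rises was that of the GTPase Igtp (0.70 ± 0.16), and the 3 became 1 without SNI 65 or SNI 70. Of 28 lymphocyte markers, 2 (Trbc1 and Gzmb, 7.14%) were higher and 0 lower (10 and 0 at an unadjusted p under 0.05), against 4.82% of all features higher. Trbc1 and Gzmb were at 0.648 CPM or less in every library. With at least 10 counts in every library, 0 of 13 markers were called. Trbc1 kept its call only without sham 55 or SNI 64 (adjusted p = 0.0532 to 0.124 without any 1 of the other 8 libraries), and Gzmb lost its call without SNI 70 (0.0841). Of 22 neutrophil and mast cell markers, 0 were called by edgeR or DESeq2 (1 at an unadjusted p under 0.05), with a median of 0.610. Without sham 50, 2 were called higher (median 1.103), and without SNI 49 the median was 0.013. The neutrophil gene S100a8 stood at 8.66 to 65.8 CPM in sham and 18.8, 21.97, 39.6 and 113 CPM after SNI, with the highest values in sham 50 and SNI 49. Complement gave 6 higher and 1 lower of 29, and 12 higher without sham 50 or 10 without sham 55. C4b, an opsonin of the classical pathway, ranged from 51.8 to 76.1 CPM with a median of 63.5 in sham and gave 101, 102, 114 and 121 CPM after SNI (0.79 ± 0.11, adjusted p = 5.90e-05), and its near-identical neighbour C4a rose by 0.68 ± 0.11, although counts of this pair may be split between copies. Hc, the fifth complement component, fell by 0.80 ± 0.17.

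Glial and connective tissue genes rose in part. Satellite glial markers gave 7 higher and 1 lower of 24 (median 0.133), and the 1 lower became 3 without sham 50 or sham 55 and 4 by DESeq2. Entpd2, an ectonucleotidase of glia, ranged from 14.3 to 17.5 CPM with a median of 15.4 in sham and gave 26.3, 26.6, 27.96 and 34.3 CPM after SNI (log2 fold change 0.88 ± 0.11, adjusted p = 2.78e-05), and the lipid droplet coat gene Plin2 rose by 0.75 ± 0.07. Cdh19, a cadherin of Schwann cell precursors and satellite glia, rose by 0.54 ± 0.08. Gfap, the intermediate filament of reactive glia, gave 4.80, 5.22, 6.44 and 6.75 CPM after SNI and 1.16 to 1.94 CPM in 5 sham libraries, but 6.76 CPM in sham 55. Its log2 fold change was 1.36 ± 0.42 (adjusted p = 0.0465) over all libraries and 2.06 without sham 55 (adjusted p = 0.000139). The call was lost when any 1 of the other 9 libraries was left out (adjusted p = 0.0635 to 0.113). S100b fell by 0.38 ± 0.07.

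Repair and non-myelinating Schwann cell genes gave 8 higher and 1 lower of 24 (median 0.272). Btc, the epidermal growth factor ligand betacellulin, rose from a range of 0.948 to 2.23 CPM to 8.55, 9.24, 9.25 and 10.4 CPM (2.57 ± 0.20, adjusted p = 4.90e-08). Tnc, the matrix protein tenascin C, rose from a range of 7.69 to 26.3 CPM to 66.3, 67.3, 78.8 and 103 CPM (2.07 ± 0.26). Neither overlapped between the groups. Myelinating Schwann cell genes gave 3 higher (13%) and 1 lower (4.35%) of 23 (median 0.002), against 4.82% and 4.87% of all features. The 3 became 1 without SNI 65 and 0 without SNI 70. Of 26 fibroblast and perineurial markers, 6 were higher and 0 lower, or 2 higher without SNI 70. Postn, the matrix protein periostin, rose from 79.97 ± 15.4 CPM to 164 ± 18.4 CPM (1.04 ± 0.12), and the lipocalin Apod from 576 ± 102 CPM to 863 ± 56.9 CPM. Matrix proteases and their inhibitors gave 9 higher and 0 lower of 34, led by the membrane-type protease Mmp16 (1.28 ± 0.10, adjusted p = 1.03e-07), and the 9 became 5 without SNI 64 or SNI 70 and 4 without SNI 65. Endothelial and mural markers gave 1 higher (the tight junction gene Cldn5, log2 fold change 0.283) and 0 lower of 24. This share of 4.17% higher was near the 4.82% of all features. Cldn5 kept its call only when sham 51 was the library left out (adjusted p = 0.0577 to 0.158 without any 1 of the others). The 18 muscle markers gave 0 higher and 1 lower, Pvalb, a share of 5.56% near the 4.87% of all features. Of 15 blood cell and adipocyte markers 0 were called by edgeR or DESeq2 (0 at an unadjusted p under 0.05). Of 5 tested oligodendrocyte markers 1 (Aspa) was higher and 1 (Nkx6-2) lower, a share of 20% in each direction from few genes. Nkx6-2 lost its call without SNI 64 (adjusted p = 0.0703), SNI 65 (0.0692) or SNI 70 (0.0578). Mog, Opalin and Olig2 fell under the filter on low counts.

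Guidance and adhesion genes moved both ways, with 7 higher and 9 lower of 66 (median -0.024). Sema6a, a transmembrane semaphorin, rose from 19.2 ± 1.46 CPM to 44.5 ± 6.83 CPM (1.21 ± 0.11, adjusted p = 3.66e-07). The 7 became 3 without sham 50, sham 56, SNI 64 or SNI 70 and 4 without SNI 65, and the 9 became 5 without SNI 64 or SNI 65. Cholesterol synthesis and handling gave 2 higher (7.41%) and 1 lower (3.7%) of 27, shares near those of all features. The 2 became 1 without SNI 49 or SNI 64, and the 1 became 0 without sham 55, sham 56, sham 71, SNI 64 or SNI 70 and 4 without sham 50 or by DESeq2. Abca1, the cholesterol efflux pump, rose from a range of 244 to 307 CPM to 420.2, 443, 477 and 504 CPM (0.74 ± 0.08).

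Genes of the p53 and integrated stress response list gave 9 higher and 0 lower of 35 (median 0.115). Hrk, a pro-apoptotic BH3-only protein of neurons, ranged from 0.727 to 1.76 CPM with a median of 1.14 in sham and gave 6.22, 6.78, 7.65 and 8.17 CPM after SNI (log2 fold change 2.66 ± 0.24, adjusted p = 2.31e-07). The p53 target Gadd45a rose from 12.3 ± 0.746 CPM to 26.2 ± 1.61 CPM (1.09 ± 0.11). For both genes no SNI library came near the sham range.

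Cell cycle genes gave 9 higher and 0 lower of 33 (median 0.779, 20 and 0 at an unadjusted p under 0.05, 9 and 0 by DESeq2). Their sum spanned 128.1 to 231.7 CPM in sham, highest in sham 50, and 180.9 to 381.5 CPM after SNI, highest in SNI 49, the same 2 libraries that were highest in neutrophil markers. The part of bone marrow or blood cells in these values was not tested. Prc1, a regulator of cytokinesis, ranged from 3.74 to 7.99 CPM with a median of 4.33 in sham and gave 12.9, 12.9, 15.2 and 20.2 CPM after SNI with no overlap (log2 fold change 1.58 ± 0.20, adjusted p = 1.94e-05), and gave 1.58 ± 0.17 without both libraries. Mki67, the proliferation marker, was not called (0.96 ± 0.43, adjusted p = 0.184), with 71 CPM in SNI 49 and 39.0 CPM in sham 50, and passed without sham 50 (adjusted p = 0.0276). The count of 9 was 3 when the BALB/c libraries were fitted alone. It was 15 without sham 50, 5 without sham 51, sham 56, sham 57 or sham 71, 3 without SNI 49 and 7 without sham 50 and SNI 49 together (median 0.433).

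Annotated LncRNAs gave 49 higher and 67 lower of 2010 tested (5.77%). Under the same conditions on level and overlap, the largest rise was that of Gm29374, from a range of 0.0279 to 0.571 CPM to 2.20, 2.41, 2.69 and 2.93 CPM (3.51 ± 0.43, adjusted p = 1.64e-05), followed by 5930412G12Rik (0.80 ± 0.17). The largest falls were those of Gm13629, from a range of 2.68 to 3.76 CPM to 1.24, 1.33, 1.59 and 1.91 CPM (-1.11 ± 0.15), Gm10754 (-1.10) and Gm26673, from a range of 3.69 to 4.24 CPM to 1.45 to 3.24 CPM. C4a was the other rise named, because the annotation used places this complement gene in the LncRNA class. All 6 were at 7.49 CPM or less in every library.

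Male and female mice were compared for their change after SNI. No feature of 24582 passed the test of the sex by SNI interaction (0% called, edgeR), and DESeq2 called 0. At an unadjusted p under 0.05 edgeR gave 1370 features and DESeq2 1024. With 2 SNI animals of each sex, the result does not show that the sexes responded alike. Gal rose by 3.72 ± 0.33 on the log2 scale in males and by 4.68 ± 0.27 in females, Sprr1a by 4.58 ± 0.56 and 5.28 ± 0.39, Atf3 by 2.88 ± 0.39 and 3.58 ± 0.16, and Csf1 by 0.85 ± 0.10 and 0.90 ± 0.10. Calb2 gave -2.84 ± 0.27 in males and -3.77 ± 0.29 in females. Male libraries alone gave 104 features higher and 39 lower, and female libraries alone 338 higher and 292 lower. Sham 50 and SNI 49, the libraries with most muscle RNA, were both male. Their part in these counts and in the male fold changes cannot be told apart from sex.

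The strain by SNI interaction asked whether a change in BALB/c differed from that in B10.D2. It called 6 features of 24685 (0.0243%), all 6 with a smaller change in B10.D2 (1073 at an unadjusted p under 0.05, 10 by DESeq2). Gal rose by 4.18 on the log2 scale in BALB/c and by 1.80 in B10.D2, an interaction of -2.37 ± 0.36 (SE, adjusted p = 0.0140). Duoxa1 rose by 3.10 and 0.379 (interaction -2.72 ± 0.23, adjusted p = 4.12e-06). Ly6a, a surface protein of the Ly6 family, gave 2.36 and 0.613, the protease inhibitor-like gene Wfdc3 gave 2.38 and 0.702, AC160966.1 gave 3.21 and -0.624, and Cdc23, an anaphase-promoting complex subunit, gave 0.484 and 0.157. In BALB/c, AC160966.1 stood at 0 to 0.0895 CPM in sham and at 0.170 to 0.544 CPM after SNI, so its fold changes rest on few counts. No other gene named here passed this test. The 6 became 3 without sham 71, SNI 49 or SNI 65.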

How the data were processed

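RNA of L3 and L4 dorsal root ganglia was sequenced as ribosomal RNA-depleted, strand-specific (dUTP), paired-end libraries. The authors aligned the reads to mm10 (GRCm38) with STAR and counted read pairs with HTSeq per annotated gene and per LncRNA they assembled. The deposited mouse table holds these raw counts for 54315 features, with no normalisation. The strand setting of the counting and tool versions are not given in the sources used here, so overlapping antisense genes and near-identical copies may share counts. Deposited result tables with the authors' own fold changes and p-values were not used. A further BALB/c SNI sample and a B10.D2 sham sample have labels but no column and were not analysed here. The paper states that both were excluded for poorer read mapping and higher Cook's distance, a measure of outliers. Another BALB/c SNI sample, from a male, was lost during library preparation, so the SNI group is what remained.

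edgeR 4.0.16 (R 4.3.3) fitted the counts of the 20 mouse libraries by quasi-likelihood, with an F test, in a model of sex, surgery, strain and strain by surgery, after TMM scaling and filterByExpr. P-values are two-sided and adjusted by Benjamini-Hochberg over all 24685 features, with a threshold of 0.05. Standard errors were derived from the log2 fold change and F (its size over the root of F). CPM is the count over library total times TMM factor, and log CPM used a prior count of 2. The sex by SNI interaction was fitted in the 10 BALB/c libraries. A zero count was read as up to 3 counts, which covers counting error only. Positions and classes came from GENCODE on GRCm38 for 49326 of 49585 Ensembl identifiers (99.5%). The model was tested on simulated data before use.

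The members and the 38 gene lists were chosen with earlier results of these data known, and some genes belong to more than 1 list. Named genes were the 15 largest rises and 15 largest falls among called protein-coding genes that averaged 1 CPM or more and whose groups were separate, up to 4 called and 3 uncalled members of each list by size and by level, and 3 annotated LncRNAs in each direction. Other genes (such as Gap43, Map1b, Jun, Klf6, Smad1, Flrt3, Chl1, Stmn4, Crh, Ucn, Ucn2, Bdnf, Tac1, Mrgprd, Oprm1, Cd68 and Aif1) were named after their values were seen. A list of 5 sex-linked genes served to check labels, and 0 of the 10 BALB/c libraries went against theirs. Some genes are not reported here. Alternatives were DESeq2 1.42.0, its size factors, other filters, no sex term, BALB/c libraries alone, annotated genes alone, each sex alone, each library left out and, added after seeing the data, sham 50 and SNI 49 left out together.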

Additional observations from a re-analysis of the deposited data

Results flagged for a closer look

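A library that stood apart from the rest of its group by Dixon's test at the 95% level was found in 19 of 314 groups of values tested (6.05%), where chance gives about 1 in 20. Muscle markers summed to 4861 CPM in sham 50 against 119.6 to 509.5 CPM in the other sham libraries, and to 1917 CPM in SNI 49 against 143.4 to 257.2 CPM. In SNI 49, Pvalb stood at 97.7 CPM against 32.0 to 34.4 CPM in the other SNI libraries, Cdh12 at 10.9 against 7.36 to 7.47 and Vamp1 at 318 CPM, above the other SNI libraries (lowest 223.7 CPM). In sham 50, the muscle sodium channel gene Scn4a stood at 12.9 CPM against 8.17 to 9.68 in the other sham libraries, and Fgf3 at 1.22 against 0.239 to 0.514.

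In sham 71, Penk stood at 9.56 CPM against 2.62 to 4.17, Postn at 109.5 against 68.8 to 83.3, Ucn at 0.285 against 0.0251 to 0.119, and Clcf1 low, at 0.628 against 1.31 to 1.62. Gfap stood at 6.76 CPM in sham 55 against 1.16 to 1.94, Aspa at 43.9 in sham 51 against 32.1 to 35.3, Myh7b at 4.74 in sham 56 against 3.14 to 3.71 and Nkx6-2 at 3.82 in sham 56 against 1.54 to 2.31. Among SNI libraries, Fgf3 stood at 10.6 CPM in SNI 64 against 7.20 to 7.69, Cd68 at 5.76 in SNI 65 against 3.66 to 3.89, Penk at 12.1 in SNI 70 against 3.08 to 3.86, and Gap43 low in SNI 65, at 193 against 204 to 206.

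Changes after SNI that differed between strains by the interaction test (B10.D2 minus BALB/c, log2 scale, edgeR adjusted p under 0.05) were those of AC160966.1 (-3.83), Duoxa1 (-2.72), Gal (-2.37), Ly6a (-1.75), Wfdc3 (-1.68) and Cdc23 (-0.33). That of AC160966.1 rests on few counts, at 0.544 CPM or less in every BALB/c library.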

How the results depend on the processing

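The count of 2392 features called in BALB/c was 1747 to 2793 with the BALB/c libraries alone, DESeq2, its size factors, other filters, no sex term, annotated genes alone or sham 50 and SNI 49 left out, all within 1.5 times of it. Single lists and genes moved more: with the BALB/c libraries alone, the calls of Pvalb (adjusted p = 0.107), H2-Ob (0.0683), Gfap (0.0896), Nkx6-2 (0.0741) and Syt4 (0.0828) were lost, and interferon-stimulated genes called higher were 5 in place of 3. Male libraries alone gave 143 (104 higher, 39 lower) and female libraries alone 630 (338 higher, 292 lower), from fewer samples. The male libraries included sham 50 and SNI 49. With 1 library left out, the total ranged from 1643 to 2648, those higher from 777 to 1301 and those lower from 866 to 1368. The strain interaction called 10 features by DESeq2, 3 with at least 10 counts in every library and 3 to 5 with 1 library left out; the cause was not tested. The sex interaction called 0 in every setting run. Of 158 genes named here or eligible under the rule that were called, 122 kept their call in every setting that held both sexes and tested them. None changed direction in any setting. Not every gene was tested in each: 137 were tested with at least 10 counts in every library and 154 by DESeq2. No paired analysis was possible because the groups share no replicate numbers. The design holds 4 SNI animals, and a gene that was not called may still have changed. Summed muscle, neutrophil and cell cycle markers were highest within their groups in sham 50 and SNI 49. What this contributed to the values of Pvalb and of the cell cycle list was not tested.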
